A study of Mus musculus with 6 samples.

Results

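Clu, Ly6a, Anxa1, Bmi1, Hopx, Msi1 and Mex3a, genes used in the intestine as marks of regenerating and of reserve stem cells, were followed through single-cell RNA sequencing of mouse ileal crypt epithelium. The 7 genes were chosen by symbol, and each matched 1 of the 32285 rows of the count matrices. Cells had been released from ileal crypts and sorted for the epithelial surface protein EpCAM before capture on the MobiNova-100 droplet platform. The 3 Fpr2f/f libraries, labelled WT, came from mice whose Fpr2 gene was flanked by recombination sites but left in place. The 3 Fpr2VKO libraries came from such mice crossed with Villin-Cre, in which the Villin promoter drives Cre in all intestinal epithelial cells and not in stem cells alone. Per the methods of the study the Fpr2f/f mice were on the C57BL/6J background, and no background is stated for the Villin-Cre mice. Mice of both groups were aged 8 to 12 weeks per the same methods, and no injury is named in the labels of these samples. Replicates were separate mice per the study. Fpr2 codes for a G protein-coupled receptor, and annexin A1, the product of Anxa1, is one of its known ligands. No Fpr2 UMI was found in the epithelial cells of any of the 6 libraries, which allows up to 0.0618 to 0.118 CPM (counts per 1e+06 UMIs, for a limit of 3 counts per library), so the transcript gave no check of the genotypes.

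Crypts are renewed by dividing Lgr5-positive stem cells at their base. Bmi1, Hopx, Msi1 and Mex3a were proposed as marks of reserve cells, which divide slowly and can restore the dividing pool. After injury the epithelium is known to take on a fetal-like state in which Clu, Ly6a and Anxa1 are turned on. Clu encodes the secreted chaperone clusterin and marks revival stem cells, and Ly6a encodes the surface protein Sca-1. Bmi1 is a subunit of the gene-silencing Polycomb complex PRC1, Hopx encodes a small homeodomain protein that does not itself bind DNA, and Msi1 and Mex3a encode RNA-binding proteins.

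The files held counts of UMIs (unique molecular identifiers, each standing for a single captured transcript) for 2359296 barcodes per library, so cells had to be chosen first. Barcodes with at least 1000 UMIs, at least 500 genes and at most 20% mitochondrial UMIs, less likely doublets, gave 16676 cells, of which 16373 were epithelial (9760 Fpr2f/f and 6613 Fpr2VKO). The mitochondrial limit kept 2643 of 12027, 4722 of 13764 and 2836 of 9736 barcodes in Fpr2f/f replicates 1 to 3. In Fpr2VKO replicates 1 to 3 it kept 2267 of 22872, 2768 of 11596 and 1868 of 13007. Before that limit, median mitochondrial shares were 26.3% to 31.7% in Fpr2f/f and 32.4% to 39.3% in Fpr2VKO. Group levels and class shares therefore describe the barcodes kept. The libraries held 90142126 to 189516114 UMIs, and their epithelial cells had a median of 2954 to 4460.5 UMIs in Fpr2f/f and 6121 to 6762.5 in Fpr2VKO. Pairs of libraries shared 0 to 22 cell barcodes, where the size of the barcode list would give 1.74 to 5.34. The count of 22 stood beside 4.29 and 5.21 expected, both between an Fpr2f/f and an Fpr2VKO library. The source of the shared barcodes was not tested, and the 239 cells concerned were left out in an alternative. Clusters formed without the 7 genes were named from marker genes as stem-like (871 cells, led by Olfm4 and Lgr5), transit-amplifying or TA-like (2028), enterocyte-like (1504), Paneth-like (922), goblet-like (1739), enteroendocrine-like (604) and tuft-like (339). Another 8366 cells stayed unnamed, with a median depth by cluster of 1672.5 to 5947 UMIs, and 281 immune-like and 22 immunoglobulin-led cells were left out of the epithelial cells. Levels are given as CPM, the UMIs of a gene divided by all UMIs of the library's cells in that class. Very abundant transcripts of a class therefore lower the CPM of all its other genes, and levels were not corrected for this. The 8 Paneth markers summed to 387751 to 418286 CPM in Paneth-like cells. The 7 goblet markers summed to 109393 to 147188 CPM in goblet-like cells. UMI capture differs from gene to gene, so levels are compared between cell classes for 1 gene and not between genes. For the 7 genes they stand beside the level in barcodes of fewer than 100 UMIs, taken as free RNA of the same library.

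On GRCm38 (GENCODE vM21) Clu lies at chr14:65968483-65981547 on the plus strand, Ly6a at chr15:74994877-74998031 on the minus strand and Anxa1 at chr19:20373428-20390944 on the minus strand. Bmi1 lies at chr2:18677018-18686629 on the plus strand, Hopx at chr5:77086988-77115121 on the minus strand, Msi1 at chr5:115429599-115455698 on the plus strand and Mex3a at chr3:88532395-88541396 on the plus strand. Opposite-strand genes overlap Anxa1 (1500015L24Rik, over 17517 bases), Hopx (Hopxos, 7772 bases) and Msi1 (4930430O22Rik, 579 bases). How strand entered the counting is not given in the sources used here, so UMIs of such pairs may not be cleanly separated. RefSeq promoters (GRCm38.p6) were found for 4 of the 7 genes: Anxa1, Bmi1, Hopx and Mex3a. Shown are the 250 bases before the start site, 5′ to 3′ on the gene's strand, of the 3 of these genes whose level was highest in enteroendocrine-like cells. Capitals mark GGAATG or its reverse complement, the core motif of TEAD factors.
Bmi1: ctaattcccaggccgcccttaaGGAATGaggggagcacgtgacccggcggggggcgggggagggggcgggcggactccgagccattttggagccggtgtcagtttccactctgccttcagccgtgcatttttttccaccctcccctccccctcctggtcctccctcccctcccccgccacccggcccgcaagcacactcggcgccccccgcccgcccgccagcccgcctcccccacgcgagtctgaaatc
Hopx: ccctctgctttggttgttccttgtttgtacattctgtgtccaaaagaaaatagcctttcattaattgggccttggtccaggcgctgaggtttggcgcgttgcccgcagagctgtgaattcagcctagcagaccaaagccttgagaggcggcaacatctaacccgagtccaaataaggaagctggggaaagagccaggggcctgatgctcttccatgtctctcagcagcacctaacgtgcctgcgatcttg
Mex3a: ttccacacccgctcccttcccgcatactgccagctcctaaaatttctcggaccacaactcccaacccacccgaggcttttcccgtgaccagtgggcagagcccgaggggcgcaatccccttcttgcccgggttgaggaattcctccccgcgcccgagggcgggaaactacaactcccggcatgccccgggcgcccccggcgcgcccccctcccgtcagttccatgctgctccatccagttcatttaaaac
The stretches are chr2:18676768-18677017 for Bmi1 (70.4% G and C), chr5:77115124-77115373 for the upstream one of 2 Hopx start sites (52.4%) and chr3:88531696-88531945 for Mex3a (64% G and C). Start sites here are those of RefSeq and can differ from GENCODE. The Mex3a stretch ends at 88531945, whereas GENCODE starts the gene at 88532395. The Anxa1 stretch lies within Anxa1 as GENCODE places it. The Bmi1 stretch held 1 GGAATG match, starting at position -228 relative to the start site, and the Anxa1 stretch (chr19:20390672-20390921) held 1 at position -236. Neither of the 2 Hopx stretches nor the Mex3a stretch held one. None of these stretches held ATCAAAG, the core motif of TCF/LEF factors, or TTCNNNGAA, a STAT motif, on either strand. Among all 27025 promoters of that length, 12.6% held GGAATG, 3.23% ATCAAAG and 7.18% TTCNNNGAA. A match of this kind describes letters and does not show binding.

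The first question was in which cell classes the 4 reserve stem cell genes were found. None of the 4 was highest in the stem-like cells. By mean CPM, Bmi1, Hopx and Mex3a were highest in enteroendocrine-like cells, and Msi1 was highest in tuft-like cells with enteroendocrine-like cells next. All class levels are descriptions over 6 libraries and were not tested.

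**Figure D1:**
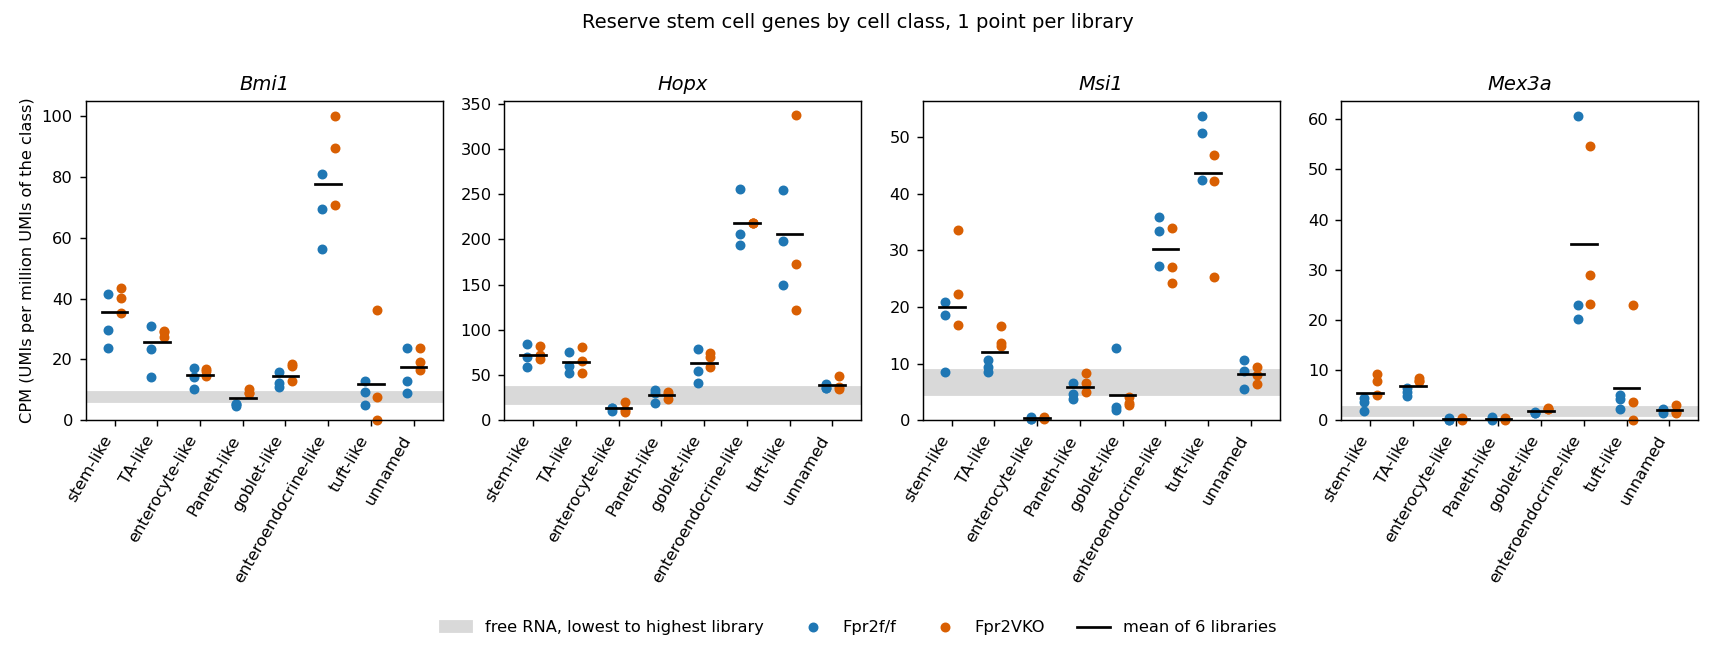
CPM of the 4 reserve stem cell genes (linear vertical axes) in 8 cell classes, with 1 point per library, a line at the mean of the 6 libraries and a grey band for free RNA. Enteroendocrine-like cells stand above stem-like cells in every library for Bmi1, Hopx and Mex3a, and tuft-like cells do so for Hopx and Msi1.

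Bmi1 reached 81, 56.2 and 69.3 CPM in the enteroendocrine-like cells of Fpr2f/f replicates 1 to 3 and 89.3, 100 and 70.6 CPM in those of Fpr2VKO. In stem-like cells it reached 41.4, 23.6 and 29.6 CPM in Fpr2f/f and 40.1, 35.4 and 43.4 CPM in Fpr2VKO. The enteroendocrine-like mean of 77.7 ± 15.7 CPM (SD, n = 6 libraries) was 2.18 times the stem-like mean of 35.6 ± 7.68, and the ranges of both classes did not overlap. Next in order came TA-like (25.7 ± 6.26), unnamed (17.6 ± 5.92), enterocyte-like (14.9 ± 2.6), goblet-like (14.7 ± 3.24), tuft-like (11.8 ± 12.6) and Paneth-like (7.21 ± 2.4), with overlapping ranges between all neighbours from stem-like cells down. Free RNA lay at 6.09 to 9.21 CPM, and Paneth-like cells exceeded it in 3 of 6 libraries. Tuft-like cells also exceeded it in 3 of 6 libraries and the other 6 classes in all. Immune-like cells, outside the epithelium, held 45.2 ± 14.9 CPM (5 libraries).

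Hopx reached 218 ± 20.9 CPM in enteroendocrine-like cells, with 194, 256 and 206 CPM in Fpr2f/f and 218 CPM in each Fpr2VKO library. Tuft-like cells held 206 ± 78.8 CPM (122 to 337), and these 2 classes overlapped. Stem-like cells held 58.4 to 84.9 CPM, with a mean of 72.5 ± 9.64, so both classes exceeded them in 6 of 6 libraries with no overlap. TA-like (64.4 ± 11.7) and goblet-like cells (62.9 ± 13.9) overlapped with stem-like cells. Immune-like cells, outside the epithelium, held 124 ± 49.6 CPM (69.4 to 195, 5 libraries). The 8 immune markers summed to 33.7 to 167 CPM in tuft-like libraries, and the part of immune transcripts in their Hopx level was not tested. Hopx was lowest in enterocyte-like cells, at 13.1 ± 3.76 CPM, below free RNA (18 to 36.3 CPM) in every library. Thinned to 2000 UMIs per cell, 37.4% of 238 tuft-like cells (95% Wilson interval 31.5 to 43.7) and 29.6% of 558 enteroendocrine-like cells (25.9 to 33.5) held a Hopx UMI. The share was 13.8% of 857 stem-like cells (11.6 to 16.2) and 2.47% of 1460 enterocyte-like cells (1.79 to 3.39). These intervals cover counting error only. Thinning left out 14 stem-like, 46 enteroendocrine-like, 101 tuft-like and 44 enterocyte-like cells that were shallower, and without thinning 72.8%, 66.9%, 51% and 23.9% of these classes held a UMI.

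Msi1 reached 50.7, 53.8 and 42.5 CPM in the tuft-like cells of the Fpr2f/f libraries and 25.4, 42.2 and 46.9 CPM in those of Fpr2VKO. The mean of 43.6 ± 9.99 CPM rested on 71 UMIs. Enteroendocrine-like cells held 30.3 ± 4.75 CPM and stem-like cells 20.1 ± 8.2 (8.48 to 33.6), with overlapping ranges, although tuft-like cells exceeded stem-like cells in 6 of 6 libraries. Enterocyte-like cells were lowest (0.382 ± 0.214 CPM) and lay below free RNA (4.42 to 8.81 CPM) in all 6 libraries. An unnamed cluster of 1491 shallow cells led by Gphn, Cdca7 and Il31ra, of which Cdca7 is on the stem cell marker list, held 36.1 CPM Msi1 (20.2 to 52.2 across libraries). Within stem-like cells at equal depth, a Msi1 UMI was found in 20 of 171 cells with an Lgr5 UMI (11.7%) and in 24 of 686 without (3.5%). The corresponding shares were 11.1% and 14.4% for Hopx and 5.26% and 6.71% for Bmi1. These shares pool cells of all libraries and were not tested.

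Mex3a reached 22.9, 20.1 and 60.7 CPM in the enteroendocrine-like cells of Fpr2f/f and 54.7, 28.9 and 23.2 CPM in those of Fpr2VKO. The mean of 35.1 ± 17.9 CPM was 6.51 times that of stem-like cells (5.39 ± 2.68), with no overlap. TA-like cells held 6.86 ± 1.42 CPM and tuft-like cells 6.36 ± 8.29, where 1 cell held 69.2% of the 13 UMIs. Goblet-like cells held 1.9 ± 0.453 CPM. Paneth-like and enterocyte-like cells held 0.279 ± 0.259 and 0.238 ± 0.185 CPM, below free RNA (0.914 to 2.69 CPM) in every library. The enteroendocrine-like level depended on which cells took that name. It was 10.4 CPM with a lower limit of 2000 UMIs and 9.99 CPM without alignment of the libraries, against 5.36 and 5.17 CPM in stem-like cells. Under these settings a cluster of 151 or 174 cells led by Ghrl and Neurog3 stayed unnamed.

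Enteroendocrine-like cells formed 2 clusters, 1 of 305 cells led by Chgb, Tac1, Chga and Tph1 and 1 of 299 cells led by Gcg, Cck, Ghrl and Gip. The genes differed between them, and the split below, made after the class levels were seen, is a description. Mex3a held 10.7 CPM in the former and 61 in the latter, whereas Hopx held 298 and 131 CPM. Bmi1 (71.2 and 84.7 CPM) and Msi1 (32.4 and 28.6 CPM) were similar in both, with overlapping library ranges.

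The gene Neurog3 encodes the transcription factor of endocrine progenitors. In the 247 enteroendocrine-like cells with a Neurog3 UMI, Mex3a reached 67.7 CPM (42.8 to 102 across the 6 libraries), against 6.08 CPM (1.68 to 11.3) in the 357 cells without one. A Mex3a UMI was found in 41.7% and 5.32% of these cells, whose median depths were 13637 and 10803 UMIs. Over all epithelial cells, whatever their class, the 385 cells with a Neurog3 UMI held 34 CPM Mex3a (21.8 to 52.5), and the 15988 cells without one held 2.84 (1.88 to 3.99). Hopx went the other way within the class, at 187 CPM with a Neurog3 UMI and 247 CPM without, with overlapping ranges.

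Tph1 encodes the enzyme for serotonin synthesis in enterochromaffin cells. Hopx reached 312 CPM (271 to 366) in the 266 enteroendocrine-like cells with a Tph1 UMI and 129 CPM (104 to 171) in the 338 without. Mex3a was 9.48 CPM (3.66 to 19.1) with and 58.5 CPM (39.7 to 92.1) without a Tph1 UMI. The ranges over libraries did not overlap for either gene. For Bmi1 they overlapped, at 70.9 and 83.9 CPM. The 8 stromal and endothelial markers summed to 34.7 to 95.8 CPM in enteroendocrine-like libraries and to 4.28 CPM at most in stem-like ones, with Cdh5 and Acta2 at 0 in the former, and the part of such transcripts in these levels was not tested.

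**Figure D2:**
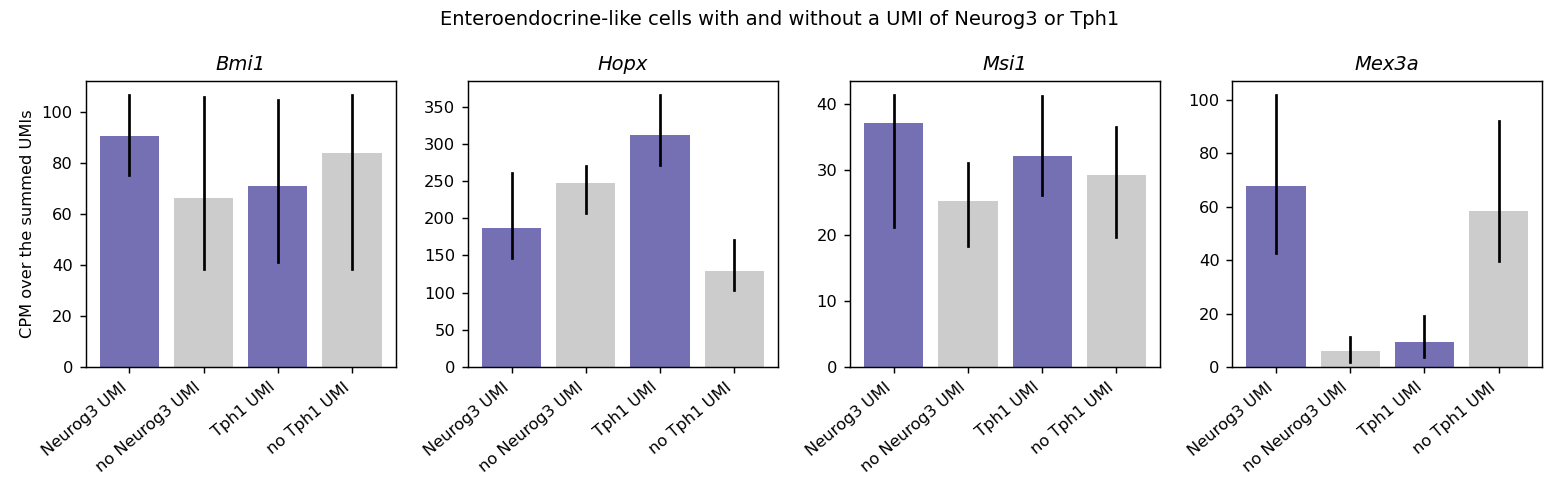
CPM of the 4 reserve stem cell genes over the summed UMIs (bars, linear axes from 0) of enteroendocrine-like cells with or without a UMI of Neurog3 or Tph1, with lines from the lowest to the highest library. Mex3a stands high with Neurog3 and Hopx with Tph1.

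The second question was whether the 3 regenerative genes were present at all. Clu and Anxa1 were at or below 1.4 CPM in all classes except tuft-like cells for Anxa1. Clu exceeded free RNA in 5 of 6 libraries in goblet-like cells and in 4 of 6 in enteroendocrine-like cells. Anxa1 exceeded it in 4 of 6 libraries in tuft-like cells and in 4 of 6 in goblet-like cells. Ly6a exceeded it in goblet-like and enterocyte-like cells of all 6 libraries. Over all 16373 epithelial cells there were 129 Clu UMIs, 678 Ly6a UMIs and 73 Anxa1 UMIs.

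**Figure D3:**
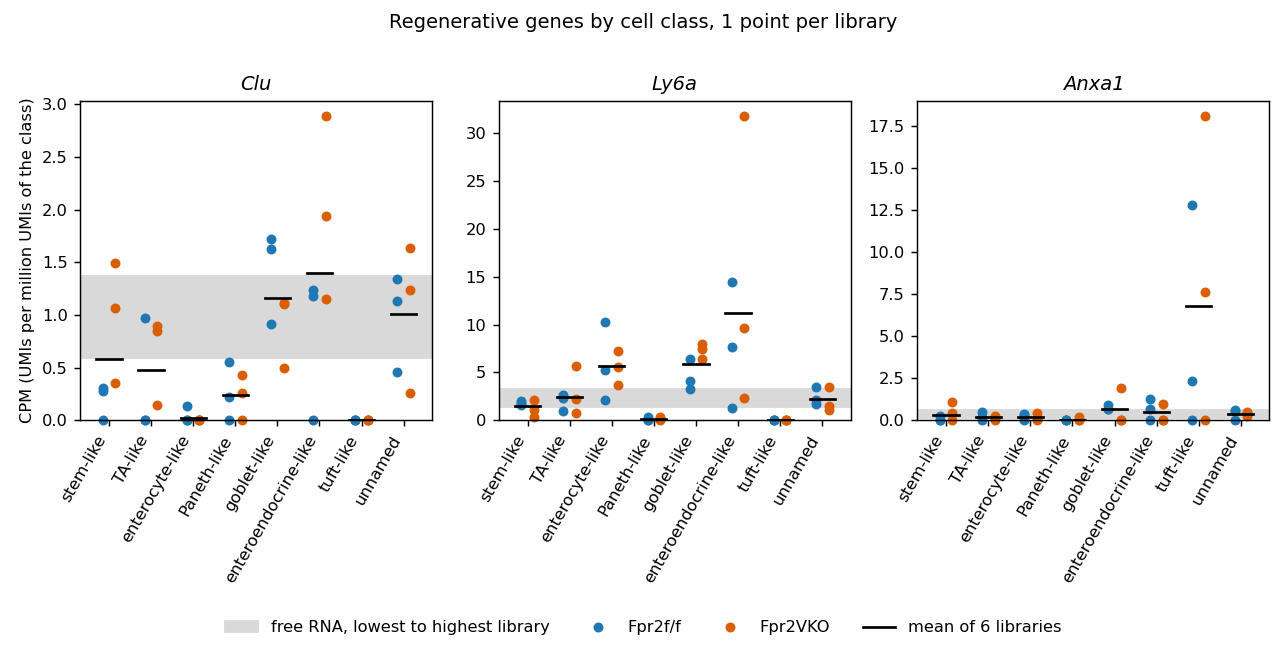
CPM of Clu, Ly6a and Anxa1 (linear vertical axes) in 8 cell classes, with 1 point per library, a line at the mean of the 6 libraries and a grey band for free RNA. Clu lies within or below the band in most libraries. Ly6a lies above it in most goblet-like, enterocyte-like and enteroendocrine-like points, and Anxa1 in some tuft-like and goblet-like ones.

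Clu was found in 113 epithelial cells (0.69%), of which 99 held 1 UMI and none more than 4. Its level was 0.198, 0.762 and 0.694 CPM in Fpr2f/f and 0.349, 0.767 and 0.663 CPM in Fpr2VKO, and free RNA lay at 0.591 to 1.37 CPM. Stem-like cells held 0.584 ± 0.569 CPM, above free RNA in 2 of 6 libraries. Enteroendocrine-like cells were highest at 1.4 ± 0.959 CPM, from 10 UMIs, and goblet-like cells followed at 1.16 ± 0.457. The 1504 enterocyte-like cells held 1 Clu UMI. The 339 tuft-like cells held none, which allows up to 1.82 CPM (3 counts over the class in all libraries). The most Clu was found in an unnamed cluster of 932 cells led by Celf2, Tex14, Flna and Arc, at 3.84 CPM from 17 UMIs (1.45 to 14.2 across libraries).

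Ly6a was found in 378 epithelial cells (2.31%), 19 of which held 5 or more UMIs and together 23.5% of all Ly6a UMIs. Goblet-like cells held 4.12, 6.45 and 3.27 CPM in Fpr2f/f and 6.36, 7.95 and 7.44 CPM in Fpr2VKO. They exceeded free RNA (1.38 to 3.31 CPM) in 6 of 6 libraries, as did enterocyte-like cells at 5.69 ± 2.84 CPM. Among the latter, the cluster of 533 cells led by Apoa4 and Fabp6, genes of lipid and bile acid handling in ileal enterocytes, held 12.7 CPM (6.04 to 31.5). The cluster of 971 cells led by Reg1 and Fabp1 held 2.55 CPM (0.837 to 5.54). Enteroendocrine-like cells ranged from 1.24 to 31.8 CPM, and 3 of them held 41% of the 83 UMIs of the class. Stem-like cells held 1.5 ± 0.678 CPM, lower than goblet-like and enterocyte-like cells in 6 of 6 libraries. Paneth-like cells held 0.137 ± 0.169 CPM, below free RNA in all 6 libraries. Tuft-like cells held no Ly6a UMI, which allows up to 1.82 CPM.

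Anxa1, whose product is a ligand of the receptor that Fpr2 encodes, was found in 59 epithelial cells (0.36%). Its level was 0.158, 0.309 and 0.536 CPM in Fpr2f/f and 0.402, 0.192 and 0.464 CPM in Fpr2VKO, against free RNA at 0.152 to 0.643 CPM. Tuft-like cells held 6.8 ± 7.42 CPM, from 12 UMIs in 8 cells, with 0, 2.34 and 12.8 CPM in Fpr2f/f and 7.63, 0 and 18.1 CPM in Fpr2VKO. Those 8 cells are too few to place Anxa1 firmly. The 8 immune markers also summed to more in tuft-like libraries (33.7 to 167 CPM) than over all epithelial cells (3.83 to 11.8). Cd3g and Nkg7 were at 0 in tuft-like cells. The 281 immune-like cells held no Anxa1 UMI, which allows up to 1.51 CPM. The part of immune transcripts in the Anxa1 level of tuft-like cells was not tested. The next class, goblet-like cells, held 0.692 ± 0.716 CPM.

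The 3 genes were rarely found in the same cell. Clu and Ly6a shared 3 cells, Ly6a and Anxa1 shared 2, Clu and Anxa1 shared none, and no cell held all 3. At these depths such counts are limited by detection. In barcodes with 20% to 40% mitochondrial UMIs, which the main filter leaves out, Clu ranged from 0.641 to 1.39 CPM and Ly6a from 0.713 to 2.49 CPM across libraries. In barcodes up to 20% of the same clustering, Clu ranged from 0.218 to 0.742 CPM and Ly6a from 2.25 to 3.42 CPM.

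Other genes of the regenerative state were also measured, without a free RNA level of their own. Of a list of 25 such genes (fetal-like and YAP target genes such as Anxa2, S100a6, Ccn1 and Areg), 17 reached at least 1 CPM over all epithelial cells. The mean was highest in goblet-like cells for 7 of the 17, in enteroendocrine-like cells for 5 and in stem-like cells for none. The corresponding shares of all genes were not counted. Anxa2 (212 ± 20 CPM) and Cxadr (155 ± 9.22) had the highest levels over all epithelial cells, and both were highest in goblet-like cells, at 417 and 381 CPM. Their levels in stem-like cells were 120 and 97.7 CPM. The other 8, among them the YAP targets Ccn2 and Ankrd1, stayed below 1 CPM.

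**Figure D4:**
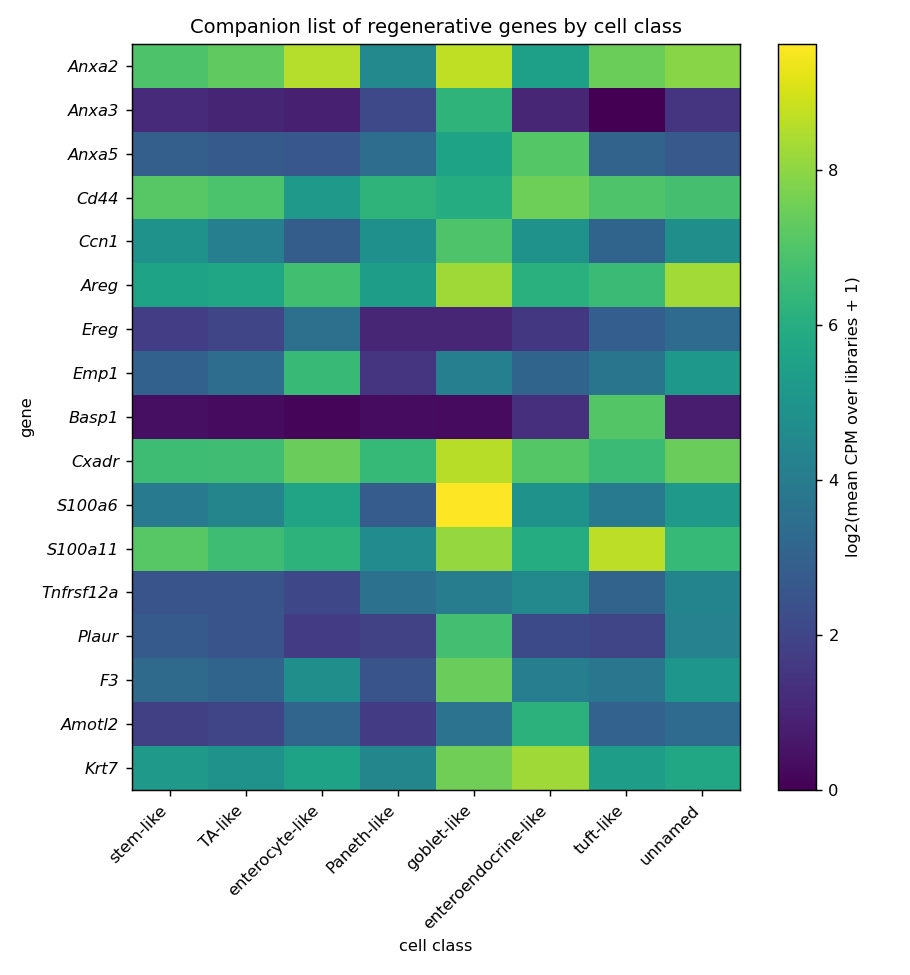
Mean level of the 17 listed regenerative genes that reached 1 CPM over all epithelial cells, in 8 cell classes, as log2(CPM + 1) by colour. The goblet-like column is highest for 7 genes and the stem-like column for none.

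A list of 11 further reserve or slow-cycling genes was highest in enteroendocrine-like cells for 6 genes, in stem-like cells for 2 (Lrig1 and Igfbp4), and in other classes for 3. Krt19, a keratin, and Cdkn1a, a cell cycle inhibitor, had the highest levels over all epithelial cells (843 ± 124 and 98.6 ± 14 CPM). Cdkn1a reached 628 CPM in enteroendocrine-like cells and 21.3 CPM in stem-like cells. Of 21 relatives of the 7 genes (other Polycomb, Musashi, Mex3, annexin and Ly6 genes), 16 reached 1 CPM and 10 of these were highest in enteroendocrine-like cells. For neither list was the count set beside the share of all genes that are highest in enteroendocrine-like cells. The Mex3a relative Mex3b reached 59.4 CPM there and 5.82 CPM in stem-like cells, and the Msi1 relative Msi2 232 and 76.4 CPM. Anxa4 (661 ± 70.3 CPM) and Ly6e (99.1 ± 18.2 CPM) were the relatives with the highest levels over all epithelial cells.

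Patterns across classes were compared by the Pearson correlation of log2(CPM + 1) over 48 sums of UMIs, 8 classes in 6 libraries. These sums share libraries and cell classes, so the values are descriptions. Among the 7 genes, Hopx and Msi1 were most alike (r = 0.88), followed by Hopx and Mex3a (0.73) and Bmi1 and Mex3a (0.72). Among the 3 regenerative genes r lay between -0.22 and 0.42. With 129 Clu UMIs and 73 Anxa1 UMIs over all epithelial cells, low counts limit the correlations of both genes. The genes with the pattern most like Hopx were Arhgef28 (0.97) and Zfhx3 (0.96), and those most like Msi1 were Arhgef28 (0.89), Hopx (0.88) and Tacc1 (0.85). Bmi1 was most like Gyg (0.92), Camta1 and Rab12 (0.90 each), and Mex3a was most like Fmnl2 and Bex3 (0.91 each) and Tmeff1 (0.90). Clu was most like Agr3 (0.70), Ttr (0.69) and Etv5 (0.68), Ly6a like Ick, Akr1c14 and Sec22b (0.79 each), and Anxa1 like Adcy5 (0.70), 2700054A10Rik and Itpr2 (0.66 each).

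The third question was whether the genes differed between Fpr2VKO and Fpr2f/f mice. UMIs were summed per library and tested across all genes with the edgeR quasi-likelihood test, with 3 libraries against 3. Over all epithelial cells and 8 classes, 37 tests of the 7 genes passed the filter on low counts, and none reached an adjusted p (Benjamini-Hochberg over all genes tested) under 0.05. Of the 37 log2 fold changes 30 were above 0. The share of all genes above 0 was not counted, and their median ran from -0.006 (all epithelial) to 0.020 (tuft-like). These 37 are not independent, since the 7 genes recur and all epithelial cells include the 8 classes. At an unadjusted p under 0.05 there were 5 tests, all higher in Fpr2VKO, beside 7.17% of the 96495 tests of all genes, and DESeq2 gave 0 adjusted calls and 4 unadjusted. Over all genes, edgeR called 0.0182% of 16484 genes in all epithelial cells, 0.14% of 10749 in stem-like, 0.565% of 9020 in Paneth-like and 0.1% of 11966 in TA-like cells. The remaining shares were 0.0271% (enterocyte-like), 0.104% (goblet-like), 0.0203% (enteroendocrine-like), 0.0248% (tuft-like) and 0.0548% (unnamed). The library was the unit of replication, so each p-value sets the difference between groups against the spread between libraries. Summed over a class or over all cells, more cells of a kind and more RNA per cell cannot be told apart.

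**Figure D5:**
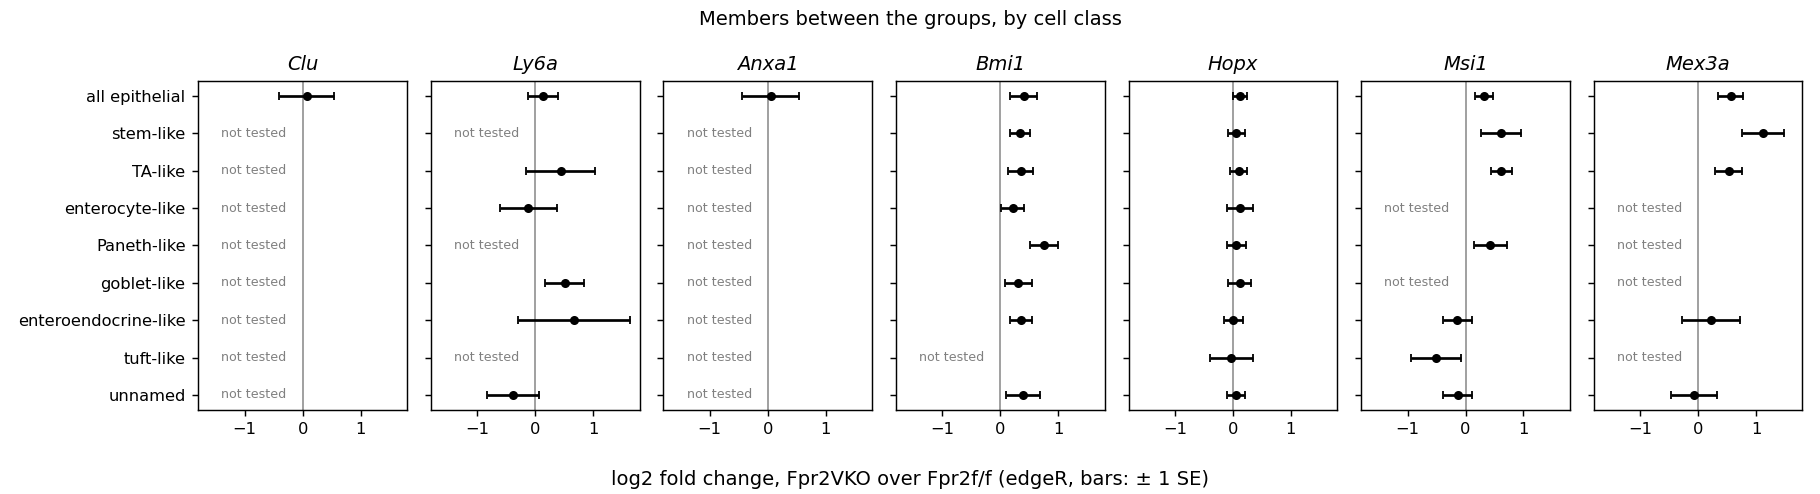
Fitted log2 fold change of each gene, Fpr2VKO over Fpr2f/f (points, with bars of 1 SE), over all epithelial cells and in 8 classes, where "not tested" marks genes under the filter on low counts. Most points for Bmi1 and Mex3a lie above 0, those for Msi1 lie on both sides, Hopx lies near 0, and none of the 37 passed the threshold.

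Mex3a showed the largest fold change of the 4 genes tested in stem-like cells. It reached 1.96, 3.73 and 4.51 CPM in Fpr2f/f and 7.89, 9.16 and 5.09 CPM in Fpr2VKO. The 3 Fpr2VKO libraries were higher than each Fpr2f/f library, with a log2 fold change of 1.12 ± 0.36 (SE) and an adjusted p of 0.282 (edgeR, 0.0884 to 0.714 over 17 settings of the analysis). In TA-like cells it reached 6.46, 4.92 and 5.6 CPM against 8.5, 7.78 and 7.89 CPM, also without overlap (0.53 ± 0.23, edgeR adjusted p = 0.676). Over all epithelial cells the values were 3.79, 2.68 and 3.37 CPM in Fpr2f/f and 6.2, 3.81 and 3.98 CPM in Fpr2VKO (0.56 ± 0.21, edgeR adjusted p = 0.466). The groups overlapped in enteroendocrine-like cells, where the fold change was 0.22 ± 0.50. Stem-like cells made up 2.05% to 5% of the epithelial cells of Fpr2f/f libraries and 7.71% to 8.11% of Fpr2VKO libraries. For TA-like cells the shares were 8.54% to 12.7% and 13.6% to 17.6%, so that the sums over all cells mix composition and level. These shares depend on the naming limit. An unnamed cluster led by Gphn had stem as its best class and would be stem-like at a limit of 0.5. Its shares ran the other way, at 9.63% to 11.5% in Fpr2f/f and 4.95% to 8.13% in Fpr2VKO libraries. Its cells had a median of 3190 UMIs and stem-like cells one of 26946, and Fpr2VKO libraries had the deeper cells. Of other deep clusters, the Zg16-led goblet-like one (median 21360 UMIs) was also higher in Fpr2VKO, at 3.23% to 4.26% and 4.51% to 6.86%. The Apoa4-led enterocyte-like one (24759 UMIs) overlapped, at 1.87% to 5.77% and 2.49% to 5.22%. The part of depth in these shares was not tested. The 8 stem cell markers also differed within the stem-like and TA-like classes. They summed to 4205 to 5667 CPM in stem-like cells of Fpr2f/f libraries and 7358 to 9518 in those of Fpr2VKO, and to 2317 to 2452 and 4141 to 4493 CPM in TA-like cells, neither with overlap. Their part in the Mex3a values was not tested.

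Msi1 in TA-like cells reached 8.62, 9.43 and 10.7 CPM in Fpr2f/f and 13.7, 13.2 and 16.7 CPM in Fpr2VKO. The groups did not overlap, and the log2 fold change of 0.62 ± 0.18 had an adjusted p of 0.36 (edgeR). The stem cell markers moved with it in these cells, as given for Mex3a, and their part in the Msi1 values was not tested. In stem-like cells, at 8.48, 18.6 and 20.9 CPM against 22.3, 33.6 and 16.9 CPM, they overlapped (0.61 ± 0.34, edgeR adjusted p = 0.751). In tuft-like cells the estimate had the other sign (-0.51 ± 0.43, edgeR adjusted p = 0.999). Mean Msi1 was also lower in Fpr2VKO in enteroendocrine-like (28.4 against 32.2 CPM) and unnamed cells (7.93 against 8.31 CPM). In Paneth-like cells it was higher (6.67 against 4.99 CPM). Whether the classes differ in this was not tested.

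Bmi1 in Paneth-like cells, the class in which it was lowest, reached 4.65, 5.35 and 5.21 CPM in Fpr2f/f and 8.98, 8.9 and 10.2 CPM in Fpr2VKO. The groups did not overlap, with a log2 fold change of 0.76 ± 0.24 and an adjusted p of 0.183 (edgeR), the lowest of the 37. The 3 Fpr2f/f values lay below the free RNA of their own libraries (7.94, 6.25 and 7.88 CPM) and the Fpr2VKO values above it (8.15, 6.09 and 9.21 CPM). The 8 stem cell markers summed to 136 to 210 CPM in Paneth-like cells of Fpr2f/f libraries and to 234 to 309 CPM in those of Fpr2VKO, and their part in the Bmi1 values was not tested. Over all epithelial cells Bmi1 reached 27.8, 12.1 and 16.6 CPM in Fpr2f/f and 24.8, 21.6 and 24.5 CPM in Fpr2VKO (0.40 ± 0.23, edgeR adjusted p = 0.632). Fpr2f/f replicate 1 held the highest Bmi1 level of its group in unnamed, stem-like, TA-like, enterocyte-like, goblet-like and enteroendocrine-like cells. Without that library the log2 fold change over all epithelial cells was 0.74 ± 0.12 (edgeR adjusted p = 0.0247) and that in unnamed cells 0.85 ± 0.20 (edgeR adjusted p = 0.0268, against 0.732 with it). The number of all genes called was larger without it too, going from 3 to 174 over all epithelial cells and from 7 to 600 in unnamed cells.

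The Hopx estimates were close to 0. Hopx reached 48.8, 46.1 and 51.5 CPM over all Fpr2f/f epithelial cells and 53.8, 42.9 and 59.1 CPM in Fpr2VKO, so the groups overlapped (0.13 ± 0.12, edgeR adjusted p = 0.759). In stem-like cells its fold change was 0.06 ± 0.14, and in enteroendocrine-like cells 0.01 ± 0.16.

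The regenerative genes could be tested in few classes. Clu and Anxa1 passed the filter over all epithelial cells only, with log2 fold changes of 0.07 ± 0.48 and 0.05 ± 0.49, which leaves sizeable differences in either direction undetectable at this depth. Ly6a reached 2.88, 3.4 and 2.81 CPM in Fpr2f/f and 2.06, 3.59 and 4.11 CPM in Fpr2VKO epithelial cells (0.14 ± 0.26, edgeR adjusted p = 0.886). Its estimates in the 5 classes tested ran from -0.38 ± 0.45 in unnamed to 0.67 ± 0.96 in enteroendocrine-like cells.

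In all, 5 of the 37 tests had groups that did not overlap, all higher in Fpr2VKO, beside 5.44% of the 96495 tests of all genes in the same 9 comparisons that were without overlap and higher in Fpr2VKO. That share was 3.37% over all epithelial cells, 6.17% in stem-like, 4.96% in Paneth-like, 5.23% in TA-like and 5.83% in enterocyte-like cells. In goblet-like, enteroendocrine-like, tuft-like and unnamed cells it was 9.4%, 3.64%, 4.06% and 6.23%. The 5 are not independent, since 4 concern Mex3a or Msi1 and all epithelial cells include the stem-like and TA-like ones. By comparison, the share of epithelial cells with a UMI of each gene, at 2000 UMIs per cell, had an exact two-sided permutation p of 0.2 or more (0.1 is the smallest that 3 against 3 allows). For Mex3a it was 0.579% ± 0.0806 in Fpr2f/f and 0.757% ± 0.166 in Fpr2VKO (n = 3 each, exact p = 0.2, adjusted over the 7 genes 0.7), and for Hopx 9.77% ± 1.31 and 10.3% ± 1.83 (exact p = 0.8, adjusted 0.9). Without thinning, Mex3a was found in 2.37% ± 0.224 and 4.86% ± 0.826 of cells (n = 3 each, exact p = 0.1, adjusted 0.175), with the deeper Fpr2VKO cells above. In stem-like cells at equal depth Mex3a was found in 1.15% ± 0.318 and 1.28% ± 0.594 (n = 3 each, exact p = 0.9, adjusted 1), and at 5000 UMIs per cell in 2.37% ± 1.92 and 5.32% ± 2.23 (n = 3 each, exact p = 0.2, adjusted 0.933).

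Of the listed companion genes, 1 passed the test in 1 class, Paneth-like cells. There 14 regenerative genes, 8 reserve genes and 14 relatives were tested. Among all genes of that class 51 of 9020 (0.565%) were called, 42 of them lower in Fpr2VKO. Anxa2, an annexin that binds membrane phospholipids, fell in Paneth-like cells, from 31.9, 23.6 and 25.6 CPM in Fpr2f/f to 23.3, 10.8 and 16.6 CPM in Fpr2VKO (log2 fold change -0.72 ± 0.17, edgeR adjusted p = 0.0278). The groups did not overlap, and the share of all genes lower in Fpr2VKO without overlap was not counted. Of the 8 classes Anxa2 was lowest in Paneth-like cells, at 22 CPM against 212 CPM over all epithelial cells and 417 CPM in goblet-like cells. The 7 goblet markers summed to 16083 to 18302 CPM in Paneth-like cells of Fpr2f/f libraries and to 13256 to 14563 CPM in those of Fpr2VKO. The part of goblet transcripts and of free RNA in the Anxa2 values was not tested. The call was lost without Fpr2f/f replicate 1 (0.0643), Fpr2f/f replicate 2 (0.256), Fpr2VKO replicate 2 (0.272) or Fpr2VKO replicate 3 (0.132), all edgeR adjusted p-values, and with DESeq2 (adjusted p = 0.231). These are not all the losses. Of 17 alternatives 8 kept the call, and adjusted p (edgeR or DESeq2) ran from 0.000454 to 0.702. No other gene of the 3 lists was called in any of the 9 comparisons. Of the 25 regenerative genes 18 were tested over all epithelial cells, with a median log2 fold change of -0.08, beside -0.006 for all genes. The 11 reserve genes had a median of 0.04 and the 16 tested relatives one of 0.07. In stem-like cells the medians were 0.26 (13 tested), 0.20 (8 tested) and 0.07 (15 tested), beside 0.003 for all genes. In unnamed cells they were -0.35 (16 tested), -0.06 (11 tested) and -0.00 (15 tested), beside 0.004 for all genes.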

How the data were processed

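The authors aligned reads to mm10 (GRCm38) with MobiVision and deposited raw UMI counts per gene and barcode. Per the labels Seurat 4.0.0 was used further, and those steps are not in these counts. The annotation version is not given in the sources used here.

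The 7 genes and the lists were chosen with earlier results of these data known. Doublets were scored from 25% artificial doublets, and 0.8% per 1000 cells were removed. Counts were log-normalized, 2000 variable genes (without mitochondrial genes, the 7 genes and the lists) gave 30 principal components, in which mutual nearest neighbours served to align the libraries, followed by Leiden clustering (leidenalg 0.10.2, Python 3.11.15). A cluster was named where its markers had a mean log2 fold of at least 1 over other cells. That limit was set after the clusters were seen. At 0.5, 4 of the 8 unnamed clusters would take a name, given here with shares of epithelial cells in Fpr2f/f and then Fpr2VKO libraries. The Creb3l3-led cluster would be enterocyte-like (6.91% to 17.4% and 4.03% to 8.41%). The Gphn-led cluster would be stem-like (9.63% to 11.5% and 4.95% to 8.13%). The histone-led (4.31% to 12.2% and 6.21% to 8.22%) and Atoh1-led clusters (0.993% to 1.43% and 1.21% to 1.7%) would be TA-like. Cells led by immunoglobulin genes were set apart after the clusters were seen.

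Sums per library and class of at least 20 cells were tested with edgeR 4.0.16 (TMM, filterByExpr, robust quasi-likelihood fit, R 4.3.3), and DESeq2 1.42.0 was an alternative. SE is the fold change over the root of the test statistic. On simulated all epithelial counts, 71.1% of 97 genes changed 2-fold and 98% of 98 changed 4-fold were called, beside 0.0936% of 16032 unchanged genes. The changed genes were drawn at random from all genes tested. These shares therefore do not describe the tests within classes or of genes with low counts such as Clu and Anxa1. Genes named were the 7, list genes called, the 2 of each list with the highest CPM, and the 3 most like each gene among genes with a mean of at least 5 CPM. Some such genes were left out of the text. Free RNA was not subtracted. Depth ran from 25316778 to 48547871 UMIs in the epithelial cells of a library. The replicate numbers of the labels gave correlations of -0.07, -0.05 and 0.28 between same-numbered libraries. Between differently numbered ones they ran from -0.16 to 0.20. Same-numbered libraries were not treated as pairs in the main test, since pairing is not shown.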

Additional observations from a re-analysis of the deposited data

Results flagged for a closer look

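Ly6a was at 550 CPM in the 22 cells led by immunoglobulin genes (Ighm, Jchain), which were left out of the epithelial cells. These cells came from 6 libraries and held 104 Ly6a UMIs in 12 cells, beside 678 UMIs in all 16373 epithelial cells. Ptprc, the leukocyte gene, was found in 20 of the 22 cells, and Epcam in 7.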

How the results depend on the processing

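The number of the 7 genes called stayed at 0 in the 9 comparisons under all alternatives run, except without Fpr2f/f replicate 1, where Bmi1 was called in all epithelial and in unnamed cells, so that leaving out single libraries gave 0 to 1 there. With the replicate number as a block, 0 of the 7 were called, and the count over all genes went from 3 to 46 in all epithelial, from 15 to 201 in stem-like and from 12 to 104 in TA-like cells. Same-numbered libraries are not shown to be paired. Over all genes, DESeq2 called 106, 29 and 22 in these 3 comparisons and 25 against 51 in Paneth-like cells, and edgeR with no filter on low counts called 211, 130, 112 and 77. At a mitochondrial limit of 10%, 154 genes were called over all epithelial cells. Anxa2 in Paneth-like cells kept its direction in all 17 alternatives and passed the threshold in 8.

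Leaving out single libraries, log2 fold changes over all epithelial cells ran from -0.28 to 0.45 for Clu, -0.03 to 0.40 for Ly6a and -0.24 to 0.49 for Anxa1, and from -0.07 to 0.19 for Hopx in stem-like cells. At a mitochondrial limit of 40%, Clu was at -0.12 and Anxa1 at -0.13. Differences in thinned shares of cells (percentage points) ran from -0.0418 to 0.0532 for Clu and -0.525 to 1.23 for Hopx over all epithelial cells, and in stem-like cells from -0.992 to 1.40 for Bmi1, -1.16 to 0.613 for Hopx, -0.077 to 3.13 for Msi1 and -0.18 to 0.413 for Mex3a. Without thinning they turned to 0.312 (Clu) and 0.0899 (Anxa1) over all epithelial cells, and to 1.49 (Clu) and -2.17 (Ly6a) in stem-like cells. At 5000 UMIs per cell they turned to 0.396 (Clu) and 4.83 (Hopx), and at the 40% limit to 2.95 (Hopx). The cause was not tested.

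The class with the highest level was the same for 7 of 7 genes with a limit of 2000 UMIs, without alignment, without cells sharing a barcode and at the naming limit of 0.5. At a mitochondrial limit of 10% it was the same for 5 (Mex3a moved to unnamed and Anxa1 to goblet-like cells), and at 40% for 6 (Clu moved to unnamed cells). The naming limit, the shared barcodes and the immunoglobulin-led cells were alternatives chosen after the data were seen. Low counts limit Clu and Anxa1 most.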
